A study of Mus musculus with 34 samples.

Results

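Mrc1, which encodes the mannose receptor, was set beside 5 other genes used to mark the macrophages of the brain's borders: the scavenger receptors Stab1 and Cd163, the chemokine Pf4, the transglutaminase subunit F13a1 and the carbonyl reductase Cbr2. The 6 genes were picked by symbol from a table of 16389 genes, and all 6 were present. The question was whether the rise of Mrc1 in brains filled with bone marrow-derived cells was matched by the other genes of that set. Mrc1 had been named by the study from these same samples, so its own rise is a description and not independent evidence.

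Border-associated macrophages lie in the meninges, around vessels and in the choroid plexus, where they take up proteins and debris from the fluids that surround the brain. They are told from microglia by scavenger and lectin receptors such as Mrc1, Cd163 and Stab1 and by secreted products such as Pf4. Several of these genes are also switched on when marrow-derived cells become macrophages in a tissue, and platelets and their precursors carry Pf4, so none of them belongs to a single cell type.

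Bulk RNA was sequenced from cortex, hippocampus and thalamus of 12 male C57BL/6 mice, counted by the animal numbers in the labels, giving 34 libraries. The thalamus piece was dissected together with striatum. WT CON mice received no irradiation, no transplant and no inhibitor. GFP-BM CON mice received 1000 cGy of whole body irradiation, followed by marrow from CAG-EGFP donors, in which a ubiquitous promoter drives GFP in every donor cell. GFP-BM REPOP mice received the same irradiation and marrow and then, 3.5 months later, the CSF1R inhibitor PLX3397 at 600 ppm in chow for 14 days, which removes microglia, followed by 6 months of recovery. The study gives more than one age for the mice at the start, so no age at irradiation is stated here. Tissue of the transplanted groups was taken about 10 months after irradiation. Each group had 4 libraries per region, except for 3 WT CON libraries of cortex and 3 GFP-BM CON libraries of thalamus. Head and body were both irradiated, so radiation and marrow engraftment cannot be told apart in GFP-BM CON, and no group received PLX3397 without a transplant. Host macrophages at the borders may remain in the transplanted groups, and bulk RNA does not separate them from donor cells.

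Levels were given as FPKM, reads scaled to gene length and to library size, so that levels of different genes can be compared per length. Between 17085018 and 26010509 reads per library were recovered from the deposited values, with a median of 21367227. The members were low in every region: over the 34 libraries Stab1 was covered by 335 to 1096 reads, Mrc1 by 23 to 225, Cd163 by 6 to 119, F13a1 by 5 to 74, Pf4 by 4 to 38 and Cbr2 by 6 to 538. Counting error alone is therefore large for Pf4, F13a1 and Cd163, and for Cbr2, whose median was 17 reads. Libraries also differed in GC balance, measured as the log2 level of the GC-richest decile of genes minus that of the GC-poorest decile. It was 1.09 to 3.65 in WT CON thalamus against 0.453 to 0.827 in GFP-BM CON and 0.506 to 0.938 in GFP-BM REPOP. In cortex it was 0.753 to 1.24 in WT CON, above the 0.430 to 0.583 of GFP-BM CON and overlapping the 0.411 to 0.994 of GFP-BM REPOP. In hippocampus it was 1.75 to 3.39 in WT CON, 0.714 to 2.08 in GFP-BM CON and 1.46 to 2.60 in GFP-BM REPOP. GC balance thus moved with the comparison against WT CON in every region, most fully for GFP-BM CON. Values after a GC correction are given for some comparisons of the members. Genes outside the 6 members were not examined after it. Genes were tested where they reached 1 FPKM in at least 3 libraries, which kept 14710 genes and 4 members: Mrc1, Stab1, Pf4 and Cbr2. Mrc1 passed through the transplanted groups alone, since it reached 1 FPKM in 10 GFP-BM REPOP, 2 GFP-BM CON and 0 WT CON libraries. Cd163 reached it in 1 library and F13a1 in 0, and these 2 genes were compared by exact permutation tests instead.

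**Figure D1:**
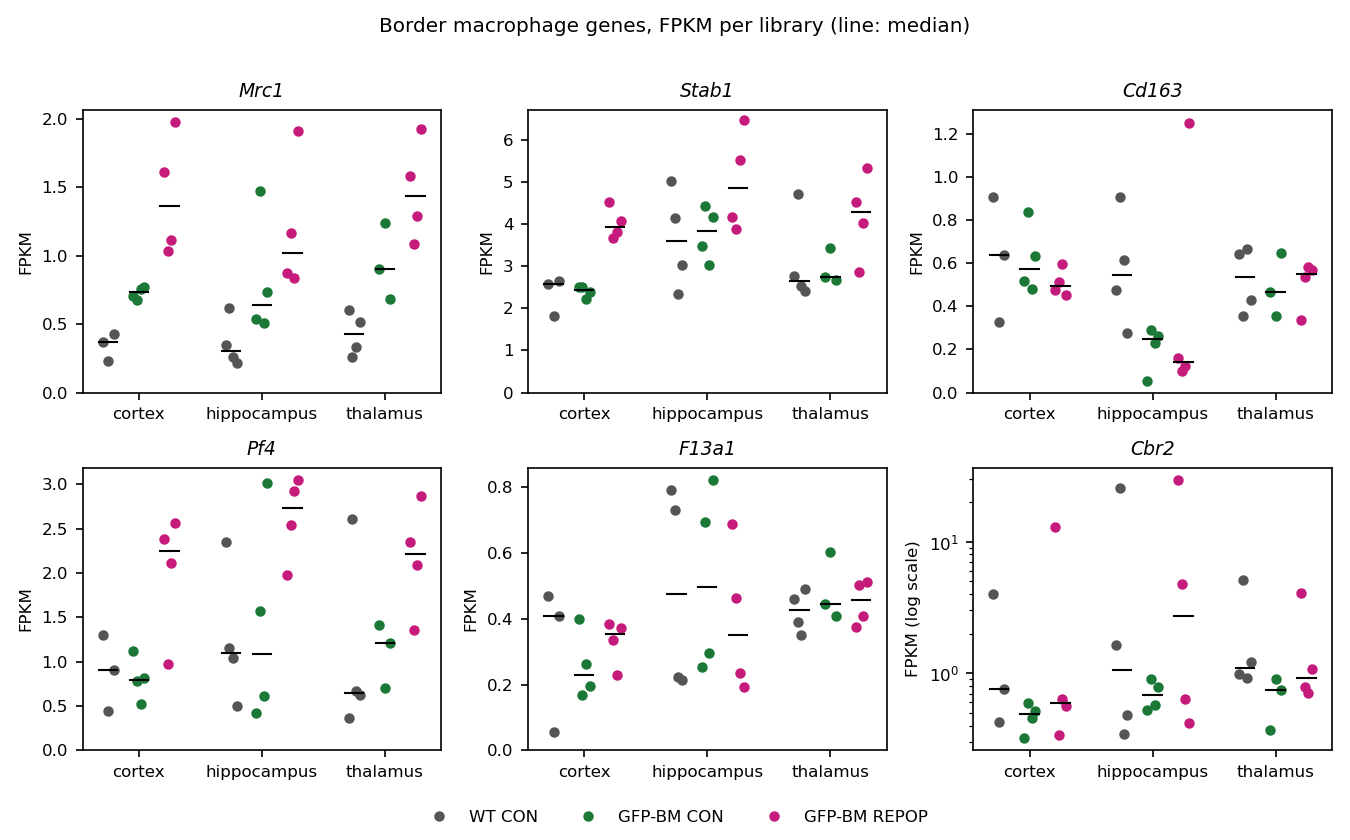
FPKM (vertical axis, logarithmic for Cbr2) of the 6 members in each of the 34 libraries by region, with 1 point per library, colours for the 3 groups and a line at the median. The GFP-BM REPOP points of Mrc1 lay above every WT CON point, and Cbr2 was above 3 FPKM in 7 libraries only.

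The sequences before the transcription start of the 3 members that rose are shown because they let the promoters of these genes be read side by side. Each run gives the 250 bases upstream of a RefSeq transcription start in GRCm38, 5′ to 3′ on the gene's strand. For Stab1, and for Cd163 and Cbr2 in the counts below, that start lies inside the gene span given later. The window there overlaps the gene by a few bases. Capitals mark GAGGAA, the core that the myeloid factor PU.1 binds, or TGCTGA, a core bound by MAF factors, each searched on both strands, where they read TTCCTC and TCAGCA. The window of Mrc1 is chr2:14229164-14229413 on the plus strand, that of Pf4 chr5:90772185-90772434 on the plus strand and that of Stab1 chr14:31168642-31168891 on the minus strand.
Mrc1: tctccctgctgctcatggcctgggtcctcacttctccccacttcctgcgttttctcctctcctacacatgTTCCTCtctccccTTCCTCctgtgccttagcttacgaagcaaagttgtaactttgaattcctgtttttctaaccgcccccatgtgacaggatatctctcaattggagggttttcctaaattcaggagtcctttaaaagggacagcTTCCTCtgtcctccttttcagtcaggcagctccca
Pf4: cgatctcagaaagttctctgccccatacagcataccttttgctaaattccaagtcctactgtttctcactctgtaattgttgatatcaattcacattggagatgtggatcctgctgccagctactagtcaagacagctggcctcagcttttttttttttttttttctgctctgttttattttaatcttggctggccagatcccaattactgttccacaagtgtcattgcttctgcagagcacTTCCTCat
Stab1: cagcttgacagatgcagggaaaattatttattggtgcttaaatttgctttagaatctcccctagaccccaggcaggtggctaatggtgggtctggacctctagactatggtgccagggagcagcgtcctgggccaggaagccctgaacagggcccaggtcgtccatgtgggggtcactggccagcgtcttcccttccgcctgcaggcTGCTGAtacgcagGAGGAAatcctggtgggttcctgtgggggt

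GAGGAA or its reverse complement occurred 3 times upstream of Mrc1, 1 time each upstream of Pf4, Stab1, Cbr2 and F13a1, and 0 times upstream of Cd163. It was present in 23.1% of 27025 promoters of this length. TGCTGA or its reverse complement was found upstream of Stab1 alone among the 6, and in 15.8% of promoters. These matches describe letters and not binding, and the search says nothing of sequence outside the window.

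Mrc1 (Entrez 17533, chr2:14229414-14332023 in GRCm38), an endocytic lectin receptor, stood highest in GFP-BM REPOP, lowest in WT CON and between them in GFP-BM CON in all 3 regions. In cortex Mrc1 was 0.371, 0.229 and 0.425 FPKM in the WT CON libraries, 0.708, 0.679, 0.755 and 0.770 FPKM in GFP-BM CON, and 1.61, 1.04, 1.11 and 1.98 FPKM in GFP-BM REPOP. The 3 groups did not overlap. Among all tested genes, 4.89% were higher without overlap in cortex in GFP-BM REPOP against WT CON, 11.5% in GFP-BM CON against WT CON, and 1.41% between the transplanted groups. In hippocampus Mrc1 was 0.347, 0.621, 0.263 and 0.213 FPKM in WT CON, 0.535, 1.47, 0.505 and 0.738 FPKM in GFP-BM CON, and 0.873, 1.16, 0.839 and 1.91 FPKM in GFP-BM REPOP. There GFP-BM CON overlapped both other groups, with replicate 2 among the highest libraries, while GFP-BM REPOP stayed above WT CON, as for 2.12% of genes. In thalamus Mrc1 was 0.601, 0.262, 0.333 and 0.519 FPKM in WT CON, 0.902, 1.24 and 0.680 FPKM in GFP-BM CON, and 1.58, 1.09, 1.29 and 1.93 FPKM in GFP-BM REPOP. Both transplanted groups lay above every WT CON thalamus library, as for 11.9% of genes in GFP-BM REPOP and 14.6% in GFP-BM CON, and they overlapped each other.

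As means ± SD, Mrc1 in cortex was 0.341 ± 0.101 FPKM in WT CON (n = 3), 0.728 ± 0.0422 FPKM in GFP-BM CON (n = 4) and 1.44 ± 0.443 FPKM in GFP-BM REPOP (n = 4). The ratio of the Mrc1 means of GFP-BM REPOP to WT CON was 4.2 in cortex, 3.31 in hippocampus and 3.43 in thalamus, and that of GFP-BM CON to WT CON was 2.13, 2.25 and 2.19. The fits used limma on log2(FPKM + 0.1), with p-values adjusted over all tested genes, and this scale understates the change of low genes. By region, the log2 fold change of Mrc1 in GFP-BM REPOP against WT CON was 1.78 ± 0.240 (SE) in cortex (adjusted p = 0.00662), 1.5 ± 0.392 in hippocampus (adjusted p = 0.296) and 1.59 ± 0.277 in thalamus (adjusted p = 0.0438). Mrc1 thus passed in cortex and thalamus. The cortex call was lost with the 2 groups alone (adjusted p = 0.0522). After a GC correction the log2 fold change was 1.68 in cortex (adjusted p = 0.00498) and 1.22 in hippocampus (adjusted p = 0.370). The thalamus call lay near the threshold: in 1 of 11 fits that each left out a library did it pass, that without WT CON thalamus replicate 1, and after a GC correction its log2 fold change was 1.01 (adjusted p = 0.0520). For GFP-BM CON against WT CON the regional log2 fold change of Mrc1 was 0.93 in cortex (adjusted p = 0.125), 0.95 in hippocampus (adjusted p = 0.175) and 0.99 in thalamus (adjusted p = 0.133, and 0.0487 without WT CON thalamus replicate 1). After the GC correction these were 0.81 in cortex, 0.44 in hippocampus and 0.40 in thalamus. Mrc1 was among 31 genes, 0.211% of those tested, whose GFP-BM REPOP libraries all exceeded WT CON in each of the 3 regions.

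Averaged over the 3 regions in a fit of all 9 groups, Mrc1 changed by 1.63 ± 0.180 (SE, log2) in GFP-BM REPOP against WT CON (adjusted p = 5.64e-07) and by 0.96 ± 0.185 in GFP-BM CON against WT CON (adjusted p = 0.000372). The step from GFP-BM CON to GFP-BM REPOP was 0.66 ± 0.180 for Mrc1 and did not pass (adjusted p = 0.118). It passed after quantile normalization (adjusted p = 0.0257) and after a GC correction (adjusted p = 0.0406). The GC correction also lowered the changes of Mrc1 against WT CON, and both still passed. They became 1.31 in GFP-BM REPOP (adjusted p = 1.33e-05) and 0.55 in GFP-BM CON (adjusted p = 0.0214). With a pseudocount of 1 the changes of Mrc1 against WT CON were 0.77 in GFP-BM REPOP and 0.40 in GFP-BM CON, and both passed. These comparisons share libraries, GFP-BM CON and WT CON among them, so their values are given side by side only.

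Stab1 (Entrez 192187, chr14:31139017-31168651), a scavenger receptor of sinusoidal endothelium and of tissue macrophages, was the most abundant member per length outside the libraries where Cbr2 was high. In cortex Stab1 was 2.57, 1.82 and 2.65 FPKM in WT CON, 2.52, 2.5, 2.23 and 2.38 FPKM in GFP-BM CON, and 4.51, 3.68, 3.8 and 4.07 FPKM in GFP-BM REPOP. The control groups overlapped entirely, and every GFP-BM REPOP cortex lay above them. In hippocampus Stab1 was 5.02, 4.14, 2.34 and 3.03 FPKM in WT CON, 3.48, 4.42, 3.02 and 4.16 FPKM in GFP-BM CON, and 4.17, 3.89, 5.53 and 6.48 FPKM in GFP-BM REPOP. In thalamus Stab1 was 2.76, 4.71, 2.53 and 2.41 FPKM in WT CON, 2.74, 3.43 and 2.67 FPKM in GFP-BM CON, and 4.53, 2.87, 4.03 and 5.32 FPKM in GFP-BM REPOP. The groups overlapped in both of these regions, and WT CON thalamus replicate 2, the high value among the controls, was also the library with the highest GC balance, 3.65, and one of 7 with olfactory genes, described below.

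Stab1 rose in GFP-BM REPOP against WT CON in cortex, by 0.76 ± 0.131 (SE, log2 fold change; adjusted p = 0.0211), with 0.48 ± 0.248 in hippocampus (adjusted p = 0.538) and 0.44 ± 0.239 in thalamus (adjusted p = 0.243). The cortex call of Stab1 was lost in a fit of all 9 groups (adjusted p = 0.519), with the 2 groups alone (adjusted p = 0.110), without the olfactory libraries (adjusted p = 0.0543), and without GFP-BM REPOP replicate 3 (adjusted p = 0.0564) or replicate 4 (adjusted p = 0.0631). Averaged over the regions Stab1 changed by 0.56 ± 0.127 in GFP-BM REPOP against WT CON and passed (adjusted p = 0.00354). In GFP-BM CON against WT CON the average of Stab1 was 0.04 ± 0.130 (adjusted p = 0.820). Against GFP-BM CON, GFP-BM REPOP was higher by 0.52 ± 0.127, which did not pass (adjusted p = 0.0699) but passed under 4 of the alternatives, among them the GC correction (adjusted p = 0.0261) and the fit without the olfactory libraries (adjusted p = 0.0375).

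Cd163 (Entrez 93671, chr6:124304636-124330529), the receptor for haemoglobin bound to haptoglobin and a marker of perivascular macrophages, did not show the order of groups seen for Mrc1. In cortex Cd163 was 0.909, 0.329 and 0.640 FPKM in WT CON, 0.516, 0.837, 0.481 and 0.633 FPKM in GFP-BM CON, and 0.474, 0.511, 0.598 and 0.452 FPKM in GFP-BM REPOP. In hippocampus Cd163 was 0.476, 0.909, 0.613 and 0.274 FPKM in WT CON, 0.0551, 0.289, 0.229 and 0.263 FPKM in GFP-BM CON, and 0.160, 0.0984, 0.124 and 1.25 FPKM in GFP-BM REPOP. In thalamus Cd163 was 0.641, 0.353, 0.666 and 0.430 FPKM in WT CON, 0.464, 0.356 and 0.646 FPKM in GFP-BM CON, and 0.337, 0.534, 0.585 and 0.568 FPKM in GFP-BM REPOP. The groups overlapped in every region and comparison, and in hippocampus 3 of the 4 GFP-BM REPOP libraries lay below all WT CON libraries while replicate 4 lay above them all.

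On log2(FPKM + 0.1) the difference of Cd163 between GFP-BM REPOP and WT CON was -0.17 in cortex (two-sided exact permutation p = 0.571), -0.83 in hippocampus (exact permutation p = 0.314) and -0.03 in thalamus (exact permutation p = 0.971). The smallest of the 18 permutation tests of Cd163 and F13a1, unadjusted for their number, was that of Cd163 in GFP-BM CON against WT CON hippocampus, -1.11 with exact permutation p = 0.0571. With 4 libraries against 4, or 3 against 4, such a test can go no lower than 0.0286. Only the most extreme split of the libraries could therefore pass 0.05. Without the filter on low values, the mean change of Cd163 over the regions was -0.34 ± 0.241 (SE, limma adjusted p = 0.327) in GFP-BM REPOP against WT CON.

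The level of Cd163 moved with striatal genes. Over the 34 libraries, with the mean of each region subtracted, Cd163 had a Pearson r of 0.83 with Drd2, the dopamine receptor of striatal neurons, and of 0.79 with the summed FPKM of 6 striatum genes, and 0.78 with each group's mean subtracted. The corresponding value with Mrc1 was -0.02, and 0.49 with each group's mean subtracted. In GFP-BM REPOP hippocampus replicate 4, the library with Cd163 at 1.25 FPKM, the striatum genes summed to 1231 FPKM, against 47.8 to 401 FPKM over the other 11 hippocampus libraries. That library also held the highest hippocampus values of Mrc1 (1.91 FPKM), Stab1 (6.48 FPKM) and Pf4 (3.06 FPKM). With the striatum sum, region means subtracted, Mrc1 had a Pearson r of 0.04. With each group's mean subtracted it was 0.40, against 0.19 for Stab1 and 0.25 for Pf4. These libraries share dissection, depth and animals, and the part of tissue content in the level of Cd163 or of these members was not tested.

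Pf4 (Entrez 56744, chr5:90772435-90773383), a chemokine of platelets and of border macrophages, was higher in GFP-BM REPOP, with more spread than Mrc1 or Stab1. In cortex Pf4 was 1.30, 0.443 and 0.908 FPKM in WT CON, 1.13, 0.778, 0.525 and 0.820 FPKM in GFP-BM CON, and 2.38, 0.977, 2.12 and 2.57 FPKM in GFP-BM REPOP. In hippocampus Pf4 was 2.35, 1.16, 1.04 and 0.503 FPKM in WT CON, 0.421, 1.57, 0.609 and 3.02 FPKM in GFP-BM CON, and 1.97, 2.54, 2.92 and 3.06 FPKM in GFP-BM REPOP. In thalamus Pf4 was 0.363, 2.61, 0.67 and 0.63 FPKM in WT CON, 1.42, 0.701 and 1.22 FPKM in GFP-BM CON, and 2.35, 1.36, 2.09 and 2.87 FPKM in GFP-BM REPOP. GFP-BM REPOP and WT CON overlapped in every region, through GFP-BM REPOP replicate 2 in cortex, WT CON replicate 1 in hippocampus and WT CON replicate 2 in thalamus.

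No regional comparison of Pf4 passed: in GFP-BM REPOP against WT CON its log2 fold change was 1.12 ± 0.373 (SE) in cortex (adjusted p = 0.238), 1.15 ± 0.537 in hippocampus (adjusted p = 0.519) and 1.26 ± 0.482 in thalamus (adjusted p = 0.165). Averaged over the regions Pf4 rose by 1.18 ± 0.286 (adjusted p = 0.00610). In GFP-BM CON against WT CON the average of Pf4 was 0.10 ± 0.294 (adjusted p = 0.822), and in GFP-BM REPOP against GFP-BM CON it was 1.08 ± 0.286 (adjusted p = 0.103). Platelets also carry Pf4 RNA. The table held 3 of 6 listed platelet and megakaryocyte genes, and Pf4 had a Pearson r of 0.19 with their summed FPKM over the 34 libraries, region means subtracted, and of 0.85 with Adgre1, which encodes the macrophage protein F4/80. The source of Pf4 RNA was not tested.

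F13a1 (Entrez 74145, chr13:36867178-37050244), the A subunit of coagulation factor XIII, which macrophages and megakaryocytes make, showed no difference between the groups that exceeded their spread. In cortex F13a1 was 0.468, 0.0553 and 0.408 FPKM in WT CON, 0.4, 0.168, 0.262 and 0.196 FPKM in GFP-BM CON, and 0.383, 0.336, 0.228 and 0.371 FPKM in GFP-BM REPOP. In hippocampus F13a1 was 0.791, 0.730, 0.223 and 0.213 FPKM in WT CON, 0.252, 0.694, 0.296 and 0.821 FPKM in GFP-BM CON, and 0.689, 0.465, 0.237 and 0.193 FPKM in GFP-BM REPOP. In thalamus F13a1 was 0.461, 0.391, 0.351 and 0.492 FPKM in WT CON, 0.446, 0.604 and 0.407 FPKM in GFP-BM CON, and 0.374, 0.503, 0.410 and 0.510 FPKM in GFP-BM REPOP. The groups overlapped throughout, and hippocampus libraries of each group fell into high and low values.

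On the log2 scale F13a1 in GFP-BM REPOP differed from WT CON by 0.26 in cortex (two-sided exact permutation p = 0.8), -0.19 in hippocampus (exact permutation p = 0.600) and 0.07 in thalamus (exact permutation p = 0.600). Without the filter, the mean change of F13a1 over the regions was 0.05 ± 0.225 (SE, limma adjusted p = 0.901). F13a1 moved with genes of meningeal fibroblasts, the collagen-producing cells of the brain's coverings: its Pearson r was 0.73 with Col1a2, a collagen chain, and 0.67 with the summed FPKM of 10 fibroblast genes, region means subtracted. By the same measure it had 0.53 with the sum of the further border macrophage genes described below and 0.26 with Mrc1. With each group's mean subtracted these became 0.81 for Col1a2, 0.73 for the fibroblast genes, 0.74 for the border macrophage genes and 0.44 for Mrc1, so F13a1 moved with both lists. The fibroblast sum ranged over 37.3 to 183 FPKM in WT CON, 30.2 to 135 FPKM in GFP-BM CON and 22.4 to 81.9 FPKM in GFP-BM REPOP. How much membrane remained on each piece was not tested as a source of the F13a1 values.

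Cbr2 (Entrez 12409, chr11:120729485-120732025), a carbonyl reductase used as a marker of border macrophages and also abundant in airway epithelium, was set by a few libraries. In cortex Cbr2 was 4.00, 0.425 and 0.764 FPKM in WT CON, 0.324, 0.597, 0.453 and 0.519 FPKM in GFP-BM CON, and 12.9, 0.338, 0.634 and 0.561 FPKM in GFP-BM REPOP. In hippocampus Cbr2 was 1.64, 25.3, 0.343 and 0.483 FPKM in WT CON, 0.525, 0.904, 0.570 and 0.790 FPKM in GFP-BM CON, and 29.1, 4.76, 0.637 and 0.417 FPKM in GFP-BM REPOP. In thalamus Cbr2 was 0.992, 5.13, 0.925 and 1.22 FPKM in WT CON, 0.368, 0.908 and 0.741 FPKM in GFP-BM CON, and 4.05, 0.783, 0.705 and 1.07 FPKM in GFP-BM REPOP. The 7 libraries above 3 FPKM came from all 3 regions of WT CON animal 34, all 3 regions of GFP-BM REPOP animal 1, and the hippocampus of GFP-BM REPOP animal 2.

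The same 7 libraries held genes of the olfactory mucosa, the sensory lining of the nose. Cyp2g1, a cytochrome P450 of that lining, was 3.63 to 37.6 FPKM in those 7 and at most 0.283 FPKM in the other 27, and Omp, the marker protein of olfactory neurons, was 5.11 to 102 FPKM in the 7 and at most 5.69 FPKM elsewhere. The ratio of Cbr2 to Cyp2g1 stayed between 0.775 and 1.23 over the 7 libraries, while the level of Cbr2 itself spanned 4.00 to 29.1 FPKM. Over all 34 libraries Cbr2 had a Pearson r of 0.94 with Cyp2g1 and 0.96 with Ugt2a1, an olfactory glucuronosyltransferase, region means subtracted, against 0.09 with Mrc1. This split was noticed from the values of Cbr2 and is a description. The part of olfactory tissue in the level of Cbr2 was not tested.

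In the other 27 libraries Cbr2 had a median of 0.845 FPKM in WT CON (0.343 to 1.64, 8 libraries), 0.570 FPKM in GFP-BM CON (0.324 to 0.908, 11 libraries) and 0.636 FPKM in GFP-BM REPOP (0.338 to 1.07, 8 libraries), so the groups overlapped. With all libraries, the mean log2 fold change of Cbr2 over the regions was 0.11 ± 0.666 (SE) in GFP-BM REPOP against WT CON (adjusted p = 0.922) and -1.18 ± 0.684 in GFP-BM CON against WT CON (adjusted p = 0.188). Without the 7 libraries these became -0.24 (adjusted p = 0.562) and -0.28 (adjusted p = 0.398). In GFP-BM REPOP against GFP-BM CON the mean change of Cbr2 was 1.29 ± 0.666 (adjusted p = 0.619), and 0.03 without the 7 libraries (adjusted p = 0.967). By region, Cbr2 in GFP-BM REPOP against WT CON was 0.07 in cortex (adjusted p = 0.984), 0.56 in hippocampus (adjusted p = 0.892) and -0.29 in thalamus (adjusted p = 0.751).

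**Figure D2:**
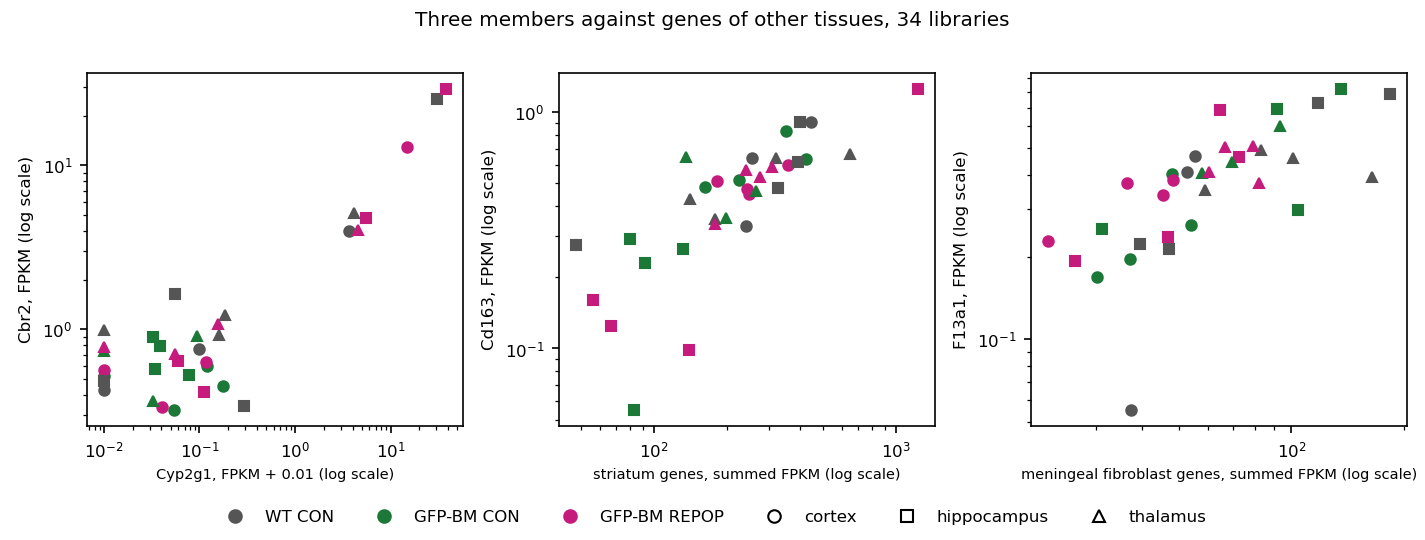
Level of Cbr2, Cd163 and F13a1 (FPKM, log axes) against Cyp2g1 or the summed FPKM of striatum or meningeal fibroblast genes in 34 libraries, with colours for groups and marker shapes for regions. The 7 libraries with Cyp2g1 of at least 3.63 FPKM were those with Cbr2 of at least 4.00 FPKM.

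Across the members, the 3 regions gave 2 of 4 tested genes higher in GFP-BM REPOP against WT CON in cortex (Mrc1 and Stab1; 0.401% of all tested genes were higher), 0 in hippocampus (0.0136%) and 1 in thalamus (Mrc1; 0.755%). Mrc1 was named for its rise in these samples and passed the filter only through the transplanted groups. The filter also left out Cd163 and F13a1, so the counts of members in this paragraph are a description. Counting both directions, 0.734% of genes were called in cortex, 0.0136% in hippocampus and 0.836% in thalamus, where 0.0816% were lower. In hippocampus, where limma called 2 genes in all, 1423 genes and among the members Mrc1 had an unadjusted p under 0.05. For the mean over the regions 3 of the 4 were higher, Mrc1, Stab1 and Pf4, where 11.8% of tested genes were called higher and 6.21% lower. In GFP-BM CON against WT CON Mrc1 was the member called higher in the mean over the regions, where 18.3% of genes were called higher and 29.9% in either direction, and no member was called in a single region (0.32% of genes called in cortex, and none in hippocampus or thalamus, where limma gave 3517 and 3045 genes an unadjusted p under 0.05 and Mrc1 was among them in both). In GFP-BM REPOP against GFP-BM CON no member was called in the mean over the regions, where 0.381% of genes were, although Mrc1, Stab1 and Pf4 each had an unadjusted p under 0.05. In single regions of that comparison no member was called either, where 0.0408% of genes were called higher and 0.0068% lower in cortex, 0.0272% higher in hippocampus and none in thalamus. No member passed in 36 tests of whether its change differed between regions (smallest adjusted p = 0.666). For GFP-BM REPOP against WT CON 0.034% of genes passed such a test between hippocampus and cortex (0.0204% higher in hippocampus) and 0.034% between hippocampus and thalamus. Bulk RNA cannot tell a change in the number of cells from a change in RNA per cell.

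**Figure D3:**
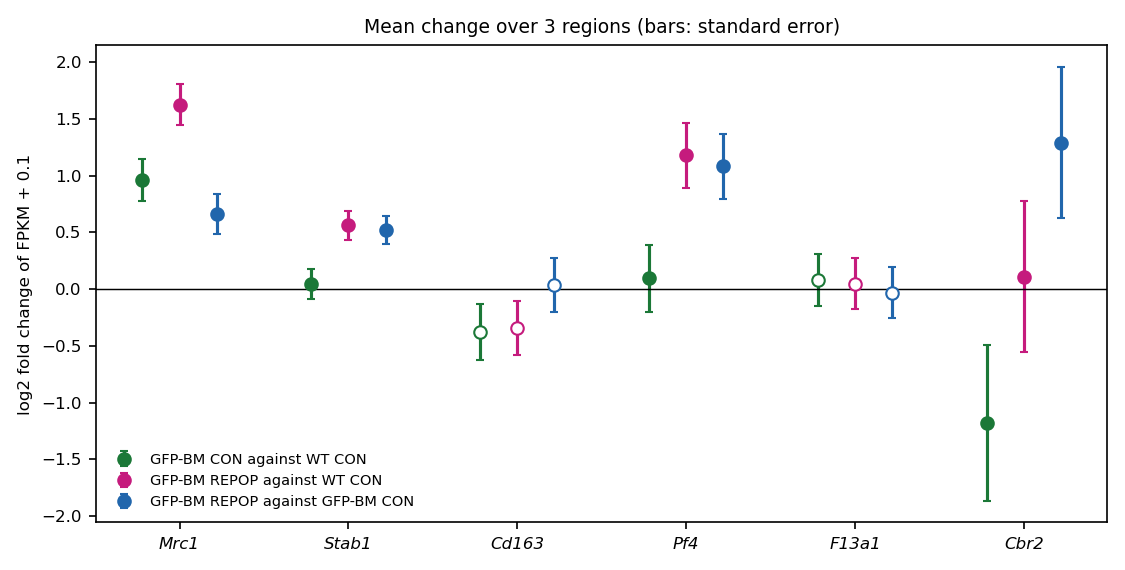
Mean log2 fold change of FPKM + 0.1 over 3 regions with its standard error for the 6 members in the 3 comparisons, which share libraries. Open circles mark Cd163 and F13a1, fitted without the filter on low values. Mrc1 is above 0 in GFP-BM CON against WT CON by 0.96, where Stab1 is at 0.04 and Pf4 at 0.10.

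The change of each gene was set beside that of Mrc1 by subtracting the log2 level of Mrc1 from that of every gene in each library and fitting the 9 groups again. Mrc1 was named for its rise in these samples, so most genes are lower on this scale, and a member that passes where nearly all genes do is at the background. The values are given for the size of the difference, and the calls are not a result about the members. In GFP-BM CON against WT CON Stab1 changed by 0.92 ± 0.235 (SE, log2) less than Mrc1 (adjusted p = 0.000685), Pf4 by 0.87 ± 0.333 less (adjusted p = 0.0155) and Cbr2 by 2.12 ± 0.574 less (adjusted p = 0.00110), where 82.1% of genes were called lower. After the GC correction the values of Stab1 and Pf4 no longer passed (-0.36 with adjusted p = 0.107 and -0.44 with adjusted p = 0.218), and that of Pf4 was also lost with a pseudocount of 1 (adjusted p = 0.0987) and with quantile normalization (adjusted p = 0.0631). In GFP-BM REPOP against WT CON Stab1 changed by 1.06 ± 0.230 less than Mrc1 (adjusted p = 3.96e-05), with a difference of -0.63 after the GC correction and -0.33 with a pseudocount of 1. Cbr2 changed by 1.49 ± 0.563 less there (adjusted p = 0.0116), where 96.6% of genes were called lower. The value of Cbr2 was lost with a pseudocount of 1 (adjusted p = 0.199) and after the GC correction (adjusted p = 0.0821). Pf4 differed from Mrc1 by -0.44 ± 0.327 there, which did not pass (adjusted p = 0.193).

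In GFP-BM REPOP against GFP-BM CON the difference from Mrc1 was -0.14 ± 0.230 (SE, log2) for Stab1 (adjusted p = 0.541), 0.44 ± 0.327 for Pf4 (adjusted p = 0.195) and 0.62 ± 0.563 for Cbr2 (adjusted p = 0.279), where 89.5% of genes were called lower. None of the 3 passed, and the standard errors do not show that they changed alike. Without the filter, Cd163 and F13a1 were lower than Mrc1 in all 3 comparisons, with a difference in GFP-BM REPOP against WT CON of -1.96 ± 0.268 for Cd163 (adjusted p = 4.14e-08) and -1.58 ± 0.259 for F13a1 (adjusted p = 3.39e-07). The levels per length changed accordingly: the ratio of Stab1 to Mrc1 in cortex was 7.04 ± 0.865 (SD, n = 3) in WT CON, 3.32 ± 0.356 (n = 4) in GFP-BM CON and 2.95 ± 0.682 (n = 4) in GFP-BM REPOP.

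Over the 34 libraries, region means subtracted, Mrc1 had a Pearson r of 0.67 with Stab1 and 0.57 with Pf4, and Stab1 and Pf4 had 0.79 with each other. With each group's mean subtracted these became 0.44, 0.23 and 0.66. The genes most like Mrc1 by this measure were Cybb, the membrane subunit of the phagocyte oxidase (0.94), Ms4a6c (0.91), Lilrb4a, an inhibitory receptor of myeloid cells (0.90), and Apobec1, a cytidine deaminase (0.89), followed by a gene listed without a symbol (Entrez 100862074, 0.88). Stab1 ranked 53 and Pf4 427 among the tested genes. Those most like Pf4 and most like Stab1 both began with Adgre1 (0.85 and 0.85). Libraries of an animal, a region and a group share their source, so these values describe the set and carry no test.

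**Figure D4:**
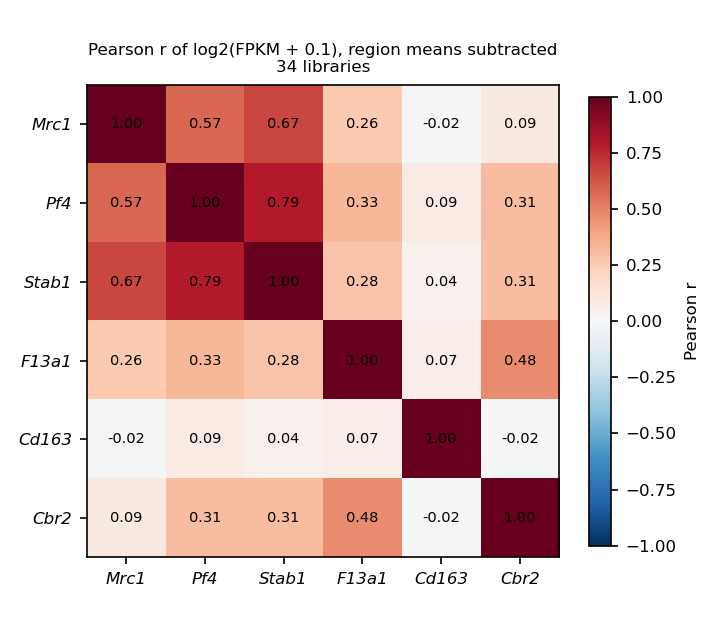
Pearson r of log2(FPKM + 0.1) between the 6 members over 34 libraries with region means subtracted (colour scale from -1 to 1, values printed). Mrc1, Pf4 and Stab1 form the block from 0.57 to 0.79, and Cd163 lies between -0.02 and 0.09 with every other member.

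A longer list of 18 border macrophage genes was used to ask whether the pattern extended past the members. The table held 13 of them. Siglec1, Cd36 and Clec10a did not pass the filter and were not tested. In GFP-BM REPOP against WT CON the ratios of their means follow for cortex, hippocampus and thalamus. They were 4.04, 1.58 and 1.70 for Siglec1, and 2.24, 2.38 and 1.52 for Cd36. For Clec10a they were 0.69, 0.64 and 0.85. Their median reads over the 34 libraries were 24, 38 and 13. The other 10 were tested. In the mean over the regions of GFP-BM REPOP against WT CON 4 rose (Ms4a7, Clec12a, Dab2 and Maf), 1 fell (Cd209f) and 5 did not pass, with a median log2 fold change of 0.22 against -0.02 over all tested genes, of which 11.8% were called higher and 6.21% lower. In GFP-BM CON against WT CON 2 of 10 rose (Ms4a7 and Maf) and 0 fell, a share near the 18.3% of all tested genes called higher. In GFP-BM REPOP against GFP-BM CON 2 rose (Ms4a7 and Clec12a) and 0 fell, where 0.231% of all tested genes were called higher and 0.15% lower. Ms4a7 was also named by the study from these samples, and it passed the filter only through the transplanted groups, reaching 1 FPKM in 0 libraries of WT CON, 4 of GFP-BM CON and 12 of GFP-BM REPOP, so its values are a description. Clec12a was at most 1.03 FPKM in WT CON and 0.919 FPKM in GFP-BM CON, against 0.597 to 4.19 FPKM in GFP-BM REPOP. It would not have passed the filter without GFP-BM REPOP, so the counts that include these 2 genes are a description as well.

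Ms4a7, a tetraspanin-like membrane protein of macrophages other than microglia, was 0.0489 to 0.626 FPKM in the 11 WT CON libraries, 0.411 to 3.03 FPKM in the 11 GFP-BM CON libraries and 2.29 to 7.18 FPKM in the 12 GFP-BM REPOP libraries. Its mean log2 fold change was 3.68 ± 0.249 (SE) in GFP-BM REPOP against WT CON (adjusted p = 1.32e-10), 1.60 ± 0.256 in GFP-BM CON against WT CON (adjusted p = 5.57e-05) and 2.09 ± 0.249 between the transplanted groups (adjusted p = 2.02e-05). Relative to Mrc1, Ms4a7 changed by 2.05 ± 0.302 more in GFP-BM REPOP against WT CON (adjusted p = 5.65e-08), where 0.0476% of genes were called higher. Clec12a, an inhibitory lectin of monocytes and dendritic cells, rose by 1.67 ± 0.290 in GFP-BM REPOP against WT CON (adjusted p = 0.000560). Its difference from Mrc1 was 0.05 ± 0.282 (adjusted p = 0.859). Clec12a rose by 1.32 ± 0.290 against GFP-BM CON as well (adjusted p = 0.0323). Dab2, an endocytic adaptor, changed by 0.55 ± 0.167 (adjusted p = 0.0235) and Maf, a transcription factor of resident macrophages that neurons also express, by 0.29 ± 0.0996 (adjusted p = 0.0435) in GFP-BM REPOP against WT CON.

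Cd209f, a C-type lectin of meningeal and perivascular macrophages, moved the other way. In cortex Cd209f was 0.566, 0.431 and 0.555 FPKM in WT CON, 0.597, 0.229, 0.464 and 0.782 FPKM in GFP-BM CON, and 0.281, 0.311, 0.135 and 0.188 FPKM in GFP-BM REPOP. In hippocampus Cd209f was 1.93, 2.02, 0.394 and 0.178 FPKM in WT CON, 0.223, 0.681, 0.323 and 1.11 FPKM in GFP-BM CON, and 0.399, 0.150, 0.210 and 0 FPKM in GFP-BM REPOP. In thalamus Cd209f was 1.11, 0.909, 0.533 and 0.995 FPKM in WT CON, 0.414, 0.558 and 0.455 FPKM in GFP-BM CON, and 0.201, 0.297, 0.229 and 0.205 FPKM in GFP-BM REPOP. GFP-BM REPOP lay below WT CON in thalamus and in cortex, as did 6.87% and 4.6% of tested genes, and below GFP-BM CON in thalamus, as did 2.24%.

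Cd209f changed by -1.42 ± 0.295 (SE, log2) in GFP-BM REPOP against WT CON over the regions (adjusted p = 0.00194) and by -1.53 ± 0.242 in thalamus (adjusted p = 0.0262). In GFP-BM REPOP against GFP-BM CON it changed by -0.97 ± 0.295, which did not pass (adjusted p = 0.201). Over the 34 libraries Cd209f was covered by 0 to 51 reads, with a median of 10. In thalamus it had 15 to 24 reads in WT CON and 5 to 7 in GFP-BM REPOP, so counting error is large for Cd209f too. Cd209f passed the filter through the groups where it was high, reaching 1 FPKM in 3 libraries of WT CON, in 1 of GFP-BM CON and in 0 of GFP-BM REPOP. The 10 meningeal fibroblast genes moved in the same direction: all 10 were below 0 in the mean over the regions of GFP-BM REPOP against WT CON, with a median log2 fold change of -0.42 against -0.02 over all tested genes, and of -0.74 in hippocampus. None of the 10 passed the limma test, where 6.21% of genes were called lower. The part of membrane content in the fall of Cd209f was not tested.

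**Figure D5:**
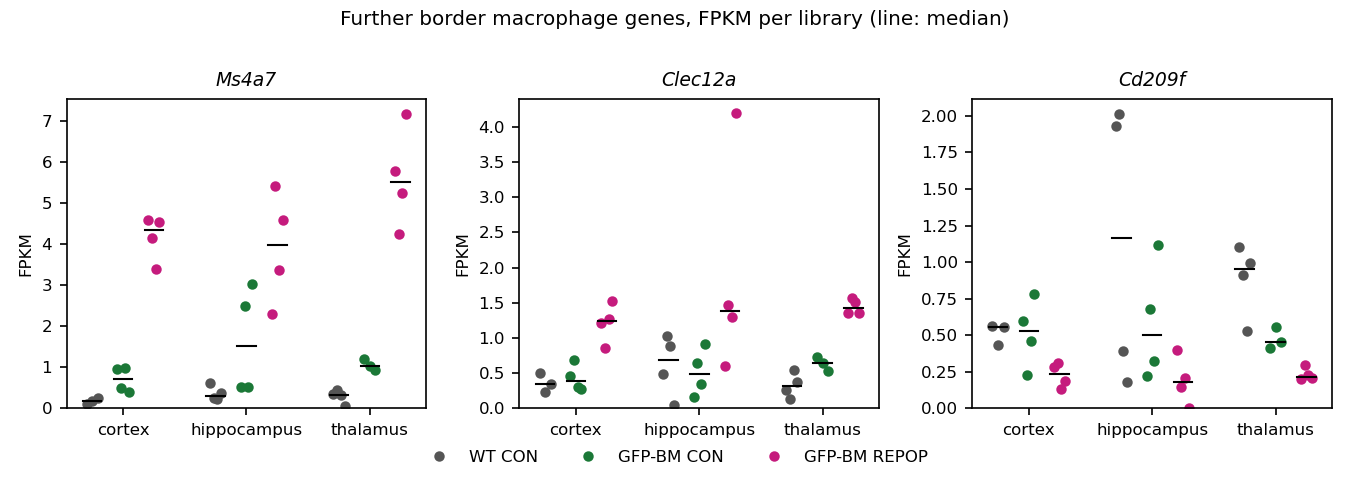
FPKM of Ms4a7, Clec12a and Cd209f in each of the 34 libraries by region, with colours for the 3 groups and a line at the median. Ms4a7 is highest and Cd209f lowest in GFP-BM REPOP, where Cd209f stays at or below 0.399 FPKM.

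For context, of 10 microglial genes 6 fell and 0 rose in the mean over the regions of GFP-BM REPOP against WT CON, with a median log2 fold change of -0.44, and of 11 genes shared by myeloid cells 1 rose and 2 fell, with a median of 0.08, where 11.8% of all tested genes were called higher and 6.21% lower. In WT CON brains no member differed between regions by the test in the fit of 9 groups. The nearest was Stab1, higher by 0.58 ± 0.244 (SE, log2) in hippocampus than in cortex (adjusted p = 0.0628), where 15.7% of genes were called higher. The order of the Stab1 means in WT CON was hippocampus (3.63 ± 1.19 FPKM, SD, n = 4), thalamus (3.10 ± 1.08 FPKM, n = 4) and cortex (2.35 ± 0.458 FPKM, n = 3), and no pair of neighbours in this order passed the test.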

How the data were processed

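Total RNA with an integrity number of at least 7 was sequenced on 2 kinds of Illumina instrument, and which library ran on which is not given in the sources used here. Per the labels and methods the authors aligned reads to mm10 with STAR, counted them with featureCounts and used edgeR and limma. They deposited FPKM per gene and library. Depth was recovered from the steps of the deposited FPKM values: 100% of values lay within 0.05 reads of a whole number.

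Here FPKM was tested on log2(FPKM + 0.1) with limma 3.58.1 in R 4.3.3 (empirical Bayes with a trend), on 14710 genes at 1 FPKM or more in at least 3 libraries, protein-coding, lncRNA or of unknown type. Each region was fitted with its 3 groups. Means over regions, differences between regions and levels relative to Mrc1 came from a fit of 9 groups, with the animal number of the labels as a random block. The estimated correlation within an animal was -0.0384, and 0.161 in the fit relative to Mrc1. Each is 1 value for all genes, so the standard errors over the regions assume almost no shared effect of animal. Single members can still differ by animal. In GFP-BM REPOP, animal 4 was highest in cortex, hippocampus and thalamus for Mrc1 (1.98, 1.91 and 1.93 FPKM). The same held for Pf4 (2.57, 3.06 and 2.87 FPKM), but not for Stab1 in cortex. Libraries of an animal from different regions had a median correlation of deviations from their group means of 0.117, against -0.0119 for different animals. The threshold was an adjusted p of 0.05 over all tested genes (Benjamini-Hochberg). The fits were checked on simulated counts, where 90% of genes changed by a log2 fold of 1 in cortex were recovered. The simulation gave every gene the same spread beyond counting error and held no effect of animal, GC balance or other tissue. It covered genes of all levels, so the 90% checks the code and is not the share expected for genes as low as the members. No 2 libraries held identical values, and replicates carry separate animal numbers in the labels.

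All 6 members were named, then genes of the longer list that passed in at least 1 comparison, and the 5 tested genes most like Mrc1. The members and lists were chosen with earlier results of these data known, and the olfactory genes after the values of Cbr2 were seen. Alternatives covered pseudocounts, filters, scaling, GC content, voom on recovered reads, blocks and each library left out. They were kept for the 6 members alone. The thalamus of 1 GFP-BM CON animal and the cortex of 1 WT CON animal were not analysed here. Promoters and coordinates are from RefSeq, GRCm38.p6, in which all 6 members matched.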

Additional observations from a re-analysis of the deposited data

Results flagged for a closer look

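In 42 sets of 4 libraries (6 members, 7 groups), 3 values lay far from the other libraries of their group by Dixon's ratio, which chance gives in about 1 set of 20. Cd163 was 1.25 FPKM in GFP-BM REPOP hippocampus replicate 4, where striatum genes were also highest among the hippocampus libraries. Cbr2 was 12.9 FPKM in GFP-BM REPOP cortex replicate 1 and 5.13 FPKM in WT CON thalamus replicate 2, and both libraries held olfactory genes. Groups of 3 libraries were not examined. None of 36 tests of a difference in change between regions passed (smallest adjusted p = 0.666), which does not show that the changes were equal.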

How the results depend on the processing

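The calls of Mrc1, Stab1 and Pf4 in GFP-BM REPOP against WT CON, and that of Mrc1 in GFP-BM CON, all over the mean of the regions, passed in each fit that left out a library and in each alternative in which the gene was tested. With a filter on the mean FPKM, Mrc1 was not tested and 0 members were called in GFP-BM CON against WT CON. Apart from the fit without the olfactory libraries, no fit left out all regions of an animal. GFP-BM REPOP animal 4, highest of its group for Mrc1 and Pf4 in every region, always kept some libraries. Dependence of these calls on that animal was not tested.

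Regional calls moved more. In cortex, GFP-BM REPOP against WT CON gave 2 members called, 1 with the filter on the mean, with all 9 groups in 1 fit, with the replicate block and without the 7 olfactory libraries, and 0 with the 2 groups alone. Leaving out libraries gave 1 to 2. In thalamus the 1 call became 0 with the filter on the mean, median-ratio scaling, GC correction, the 2 groups alone, the replicate block and without the olfactory libraries, and 0 to 1 with libraries left out. With all 9 groups in 1 fit hippocampus gained 1 call in GFP-BM REPOP and 1 in GFP-BM CON against WT CON. In thalamus the comparison of the 2 control groups gave 0 to 1 with libraries left out. Between the transplanted groups cortex gave 1 call with quantile normalization, GC correction, voom and the 2 groups alone, and 0 to 1 with libraries left out. Over the mean of the regions they gave 1 with median-ratio scaling, quantile normalization, voom and without the olfactory libraries, 2 with GC correction, and 0 to 2 with libraries left out. In WT CON, hippocampus against cortex gave 1 with quantile normalization and voom, and 0 to 1 with libraries left out.

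Relative to Mrc1, GFP-BM REPOP against WT CON gave 2 members, 1 with pseudocount 1 and with GC correction, 4 of 5 without the filter, and 2 to 3 with libraries left out. The 2 control groups gave 3, 1 with GC correction and 5 of 5 without the filter. The transplanted groups gave 0, 2 of 5 without the filter and 1 without the olfactory libraries. Voom was not run for this fit. The tests of Cd163 and F13a1 gave 0 calls below 0.05, and 0 to 1 with libraries left out: Cd163 in GFP-BM CON against WT CON hippocampus without WT CON replicate 4.

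Some values changed sign, none of them past the threshold except where said. Cbr2 in GFP-BM REPOP against WT CON became -0.0090 in cortex and -0.087 over the regions with quantile normalization, and -0.18 in cortex, -0.31 in hippocampus and -0.24 over the regions without the olfactory libraries. With libraries left out Cbr2 ranged from -1.04 to 0.94 in cortex, -0.58 to 1.82 in hippocampus, -0.82 to 0.26 in thalamus and -0.29 to 0.55 over the regions. In GFP-BM CON against WT CON over the regions, Pf4 became -0.17 and Stab1 -0.17 with quantile normalization, Stab1 became -8.53e-05 with voom, and with libraries left out Pf4 ranged from -0.062 to 0.28 and Stab1 from -0.022 to 0.12. Relative to Mrc1 between the transplanted groups, Cbr2 became -0.65 without the olfactory libraries, past the threshold (adjusted p = 0.0353), and Stab1 0.052 with pseudocount 1. With libraries left out, GFP-BM REPOP against WT CON ranged for Cd163 from -0.51 to 0.11 in cortex and -0.17 to 0.12 in thalamus, and for F13a1 from -0.34 to 0.60 in cortex, -0.45 to 0.064 in hippocampus and -0.00093 to 0.14 in thalamus. The cause was not tested in any of these.

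The replicate numbers of the labels mark different animals in each group, and 4 of 34 libraries correlated best with their own number in another group. As a block the number left 1 member called in cortex and 0 in thalamus in GFP-BM REPOP against WT CON, and 0 elsewhere. Leaving out the animal block gave 3 members over the mean of the regions in GFP-BM REPOP against WT CON, 1 in GFP-BM CON against WT CON and 0 between the transplanted groups, as with it. With an estimated correlation within an animal of -0.0384, this agreement was close to fixed in advance. Depth limits Pf4, Cd163 and F13a1, at 4 to 119 reads per library, and Cbr2, at a median of 17.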
